A study of Mus musculus with 6 samples.

Results

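The genes described here mostly encode the subunits of the mitochondrial respiratory chain and ATP synthase that are made from nuclear DNA. They were taken by symbol as all genes of the count table starting with Ndufa, Ndufb, Ndufc, Ndufs, Ndufv, Uqcr, Cox4i, Cox5, Cox6, Cox7, Cox8 or Atp5, together with Sdha, Sdhb, Sdhc, Sdhd and Cyc1. Of 26332 genes in the table, 98 met this rule, after 3 symbols marked as pseudogenes with -ps were left out. The 98 include 8 genes of complex I assembly factors and 4 copies of complex I genes. Of these copies, Ndufa11b and Ndufs6b are annotated as pseudogenes. RNA-seq counts were available for thymic natural killer (NK) cells of C57BL/6 mice, each library from 1 mouse. The mice were 4 wild types (WT 1 to WT 4) and 2 with a knock-out (KO 1 and KO 2) of Tcf7, the gene of the transcription factor TCF-1. The labels give male sex for WT 1, WT 3 and KO 1 and female sex for the other libraries. The sort kept NK1.1+ NKp46+ cells and removed those with TCRbeta, CD3, CD8 or CD1d tetramer signal, in both genotypes. The labels state neither the age of the mice nor how the Tcf7 allele was made.

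The respiratory chain moves electrons from NADH and succinate to oxygen and pumps protons across the inner mitochondrial membrane. Complex I (NADH dehydrogenase) and complex II (succinate dehydrogenase) feed electrons to ubiquinone, complex III passes them to cytochrome c, and complex IV (cytochrome c oxidase) reduces oxygen. Complex V, the ATP synthase, uses the proton gradient to make ATP. All of these complexes except complex II combine nuclear-encoded subunits with a few encoded by mitochondrial DNA, so that both genomes must supply parts. NK cells draw on oxidative phosphorylation at rest and raise it together with glycolysis when activated.

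Levels are given as CPM, a gene's counts as a share of the library on a common scale after TMM scaling for size and composition, and fold changes as KO minus WT on the log2 scale. Calls were made with edgeR's quasi-likelihood test, with sex as a term, at a Benjamini-Hochberg adjusted p under 0.05 over all 13652 genes tested. Total counts ranged from 16418910 to 31155303 per library. Tcf7 was lower in both KO libraries (268 and 452 CPM) than in the WT libraries (811 to 947 CPM), with transcript still counted in the KO. The 12 NK marker genes, among them Ncr1 and Klrb1c, were detected in both genotypes and summed to 15522 to 16371 CPM in WT, 15005 in KO 1 and 12959 in KO 2. Of these 12, 11 had a fold change below 0 and 3 were called lower: Eomes (-2.11), Tyrobp (-0.67) and Klrb1c (-0.48). Marker lists of other cells differed between the genotypes in both directions. The 10 alpha-beta T cell markers summed to 322 to 494 CPM in WT, 1586 in KO 1 and 2081 in KO 2, and 4 of 10 were called higher. The 6 B cell markers summed to 364 to 417 CPM in WT, 506 in KO 1 and 408 in KO 2 (5 of 6 higher), the 9 myeloid markers to 324 to 424, 493 and 436 CPM (0 of 8 tested called), and the 7 stromal markers to 108 to 119, 270 and 448 CPM (4 of 5 tested higher). Most of the B cell sum was Ighm, with 359 to 406 CPM in WT and 357 and 365 CPM in KO. Most of the myeloid sum was Itgam, with 319 to 368 CPM in WT and 347 and 280 CPM in KO. The 5 called B cell genes were the others, and Ms4a1, with the largest fold change, had 0 to 1.57 CPM in WT and 44.2 and 9.73 CPM in KO. For 6 of the 8 myeloid markers tested both KO libraries lay above WT, against 20.5% of all genes tested. The 2 gamma-delta T cell markers found summed to 109 to 208 CPM in WT, 294 in KO 1 and 144 in KO 2, and 1 was called higher. Most of this sum was Trdc, which was not called, with 109 to 207 CPM in WT and 283 and 135 CPM in KO. The called gene was Sox13, with 0.12 to 2.62 CPM in WT and 10.4 and 9.28 CPM in KO. The 4 erythroid markers summed to 15.3 to 45.2 CPM in WT, 0.232 in KO 1 and 24.1 in KO 2, with 0 of 3 tested called. Most of the stromal sum was Pecam1, itself called higher, with 103 to 113 CPM in WT and 245 and 402 CPM in KO. Epcam had 4.82 to 6.36 CPM in WT and 21.3 and 34.9 CPM in KO, and the other stromal markers were lower still. Among the stromal markers, Col3a1 was at 0 in all WT libraries and Pdgfra was at 0 in both KO libraries. The part of these cells in the results below was not tested.

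Most respiratory chain genes had a slightly lower value in KO, and few of the differences passed the test. Of the 98 genes, 92 passed the filter on low counts. Of these, 4 were lower in KO, none was higher and 88 were not called. Over all genes tested, 13.7% were called, 8.13% higher and 5.58% lower, so that the share of members called (4.35%) was below the share over all genes. The 1872 calls over all genes comprised 1110 higher and 762 lower, or 1336 higher and 523 lower with scaling by library size alone. Before adjustment, 18 of the 92 members had a p under 0.05, against 29.3% of all genes tested. The median log2 fold change of the members was -0.15 (quartiles -0.29 and -0.05), and that of all genes tested was 0.02 (quartiles -0.24 and 0.40). Fold changes were below 0 for 76 of 92 members, and for 60 of 92 when scaled by library size, where the median was -0.07. In CPM, both KO libraries lay below all 4 WT libraries for 28 members and above them for 1, Ndufa12. Over all genes tested 18.8% lay below and 20.5% above in the same way, 39.3% in all. In these bulk samples, fewer cells of a type and less RNA per cell cannot be told apart.

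A 95% interval from the same fit lay within a 2-fold change in either direction for 78 of 92 members and within a 1.5-fold change for 51. Precision followed the level. The 73 members with a mean of at least 10 CPM had a median coefficient of variation of 8.14% between WT libraries and a median standard error (SE) of 0.13, against 21.5% and 0.35 for the other 19. Among the 73, fold changes were below 0 for 65 with a median of -0.16, and among the 19 they were below 0 for 11 with a median of -0.10. WT 4 held the highest of the 4 WT values for 59 of 92 members. Without WT 4 the median of the members was -0.11, and 65 of 92 fold changes were below 0.

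**Figure D1:**
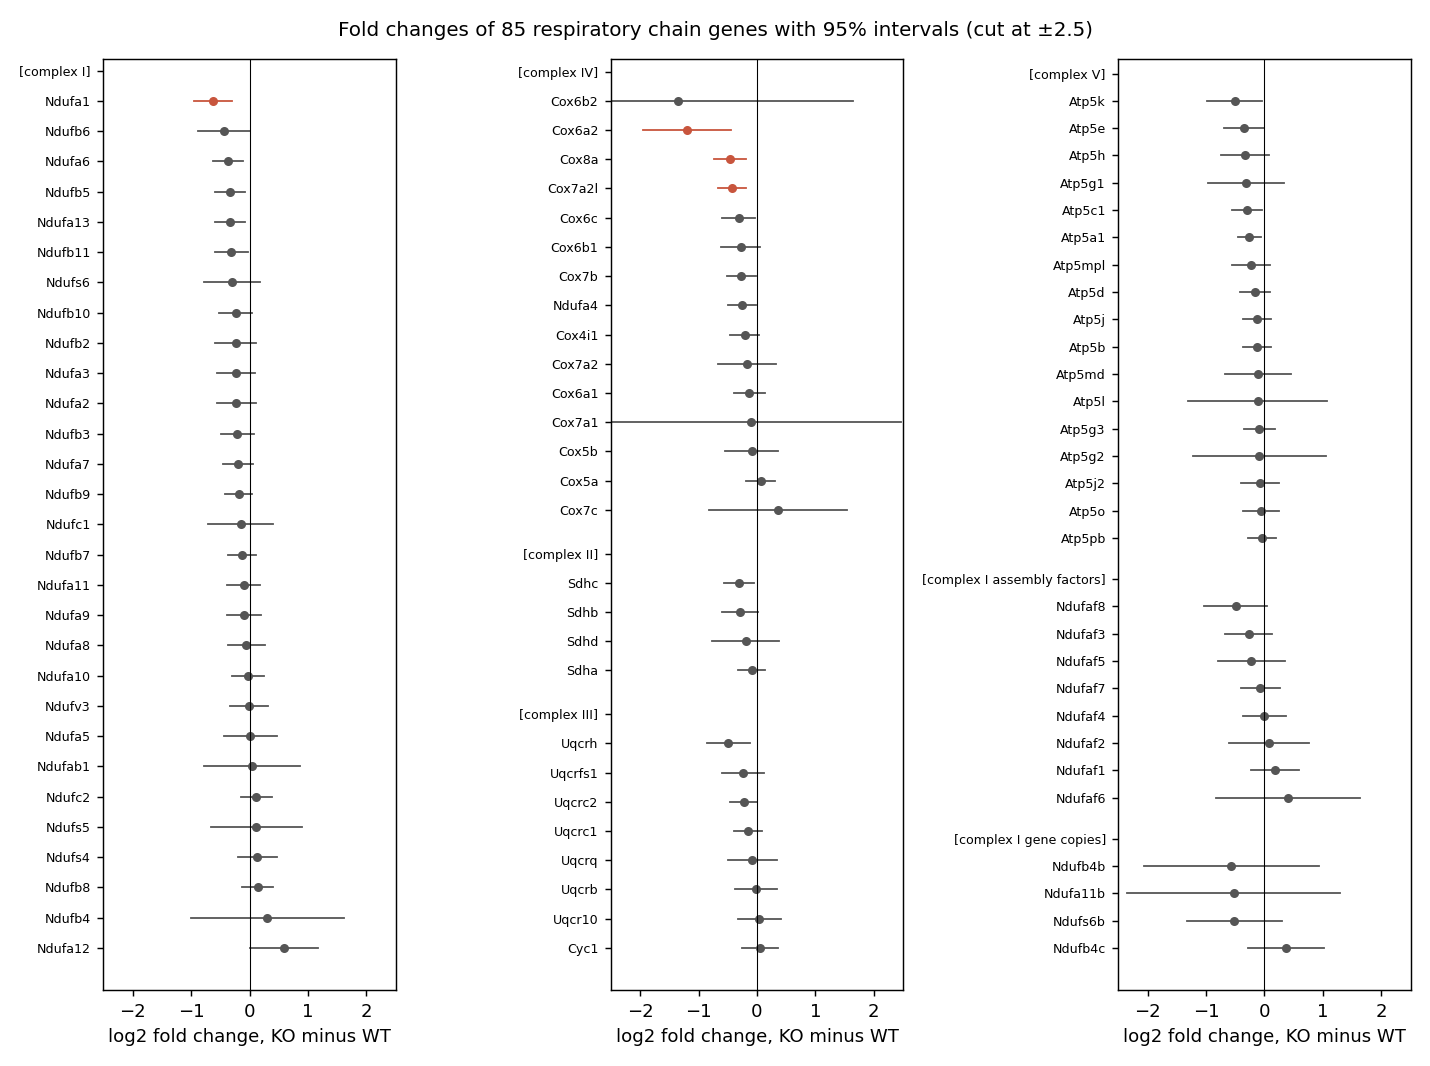
Fold change (KO minus WT, log2) of 85 of the 92 members tested, without the 7 core subunit genes of complex I, in rows grouped by complex and sorted by value, with 95% intervals from the fit as lines, cut at the axis limits for Cox6b2 and Cox7a1. The 4 called genes, Ndufa1, Cox6a2, Cox8a and Cox7a2l, are red, and most other points lie a little to the left of 0.

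Summed over their members, all 5 complexes had lower CPM in both KO libraries than in every WT library. Complex I had 1703, 1649, 1658 and 1826 CPM in WT 1 to WT 4, and 1575 and 1547 CPM in KO 1 and KO 2. Complex II had 499.9, 501, 481 and 505 CPM in WT, against 427 and 459 in KO. Complex III had 806, 763, 797 and 916 CPM in WT and 759 and 669 CPM in KO. The KO sums of complex IV were 1119 and 1153 CPM, against 1349, 1309, 1281 and 1538 in WT, and those of complex V were 2578 and 2557 CPM, against 2872, 2815, 2761 and 3248 in WT. As a share of the library's counts, without TMM scaling, complex I overlapped between the groups (0.161% to 0.178% in WT, 0.166% and 0.159% in KO), as did complex III (0.0743% to 0.0892% in WT, 0.0798% and 0.0686% in KO). The sums are dominated by a few abundant genes and are given without a test.

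**Figure D2:**
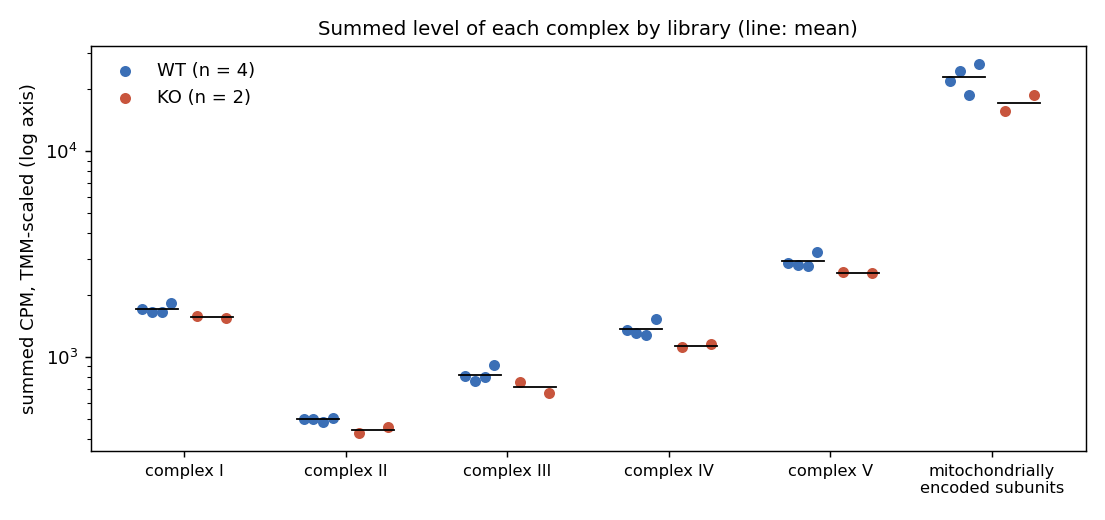
Summed CPM (log axis) of the nuclear-encoded members of each complex and of the 13 mitochondrially encoded subunit genes, 1 point per library and a line at the mean of 4 WT or 2 KO libraries. For each nuclear-encoded complex both KO points lie below the lowest WT point, by a small distance in complexes I, II and III, smallest in complex III.

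Complex I takes electrons from NADH through a peripheral arm and pumps protons in a membrane arm. All 36 of its subunit genes in the table were tested, of which 1 was lower and none higher, with a median of -0.10. The 7 genes of the nuclear-encoded catalytic core (among them Ndufs1 and Ndufv1), which carry the flavin and the iron-sulfur clusters or the quinone site, had fold changes between -0.14 and -0.02 and all 7 overlapped between the groups. The 29 accessory subunit genes had a median of -0.15 and ranged from -0.63 to 0.59. For 11 of these 29 both KO libraries lay below WT, against 18.8% of all genes tested.

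The called gene was Ndufa1, an X-linked accessory subunit of the membrane arm that is needed for complex I assembly (Entrez gene 54405, mm10 chromosome X, 37187588 to 37191238). Its level was 37.2, 34.5, 33.6 and 41.5 CPM in WT 1 to WT 4 and 21.3 and 26.4 CPM in KO 1 and KO 2. The groups did not overlap, and the KO mean of 23.8 ± 3.56 CPM (SD, n = 2) was 0.648 times that of WT in the fit (36.7 ± 3.53 CPM, SD, n = 4). The log2 fold change was -0.63 (SE 0.14, adjusted p = 0.0278, edgeR). Ndufb10, the subunit gene with the highest level per length in complex I, had 80.7 ± 6.58 CPM in WT and 68.4 ± 5.93 CPM in KO (-0.24, adjusted p = 0.248, edgeR). Ndufa6, an accessory subunit at the base of the peripheral arm, was uniform in WT at 46.0 to 48.3 CPM and had 34.7 and 37.6 CPM in KO. It was not called (-0.37, SE 0.11, adjusted p = 0.0607, edgeR), and it was called without the sex term and by DESeq2. Ndufa12, near the junction of the NADH-binding part, was the one member above WT in both KO libraries, with 4.94, 6.13, 7.26 and 6.66 CPM in WT and 9.22 and 9.58 CPM in KO (0.59, adjusted p = 0.166, edgeR). Ndufa6 and Ndufa12 were chosen after their values were seen.

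Assembly factors build complex I but are not part of it. The 8 genes Ndufaf1 to Ndufaf8 fell under the symbol rule, none was called, the median was -0.04, and the groups overlapped for all 8. Ndufaf8 had the smallest p and the highest level per length among them. Its WT values were 18.7, 13.3, 18.4 and 18.2 CPM, and its KO values were 10.3 and 14.0 CPM (-0.49, adjusted p = 0.203, edgeR, and -0.86 to -0.17 with 1 library left out). The rule also took 4 copies of complex I genes, Ndufb4b, Ndufb4c, Ndufa11b and Ndufs6b, with 0.526 to 9.10 CPM over the 6 libraries and no call. Ndufb4c was counted at 4.82 to 9.10 CPM (0.37, adjusted p = 0.426, edgeR, and 0.096 to 0.61 with 1 library left out), above its parent gene Ndufb4 at 1.42 to 3.42 CPM. The pseudogene Ndufs6b had 5.10 ± 0.67 CPM in WT and 3.64 ± 1.32 CPM in KO (-0.52, adjusted p = 0.371, edgeR, and -0.97 to -0.12 with 1 library left out).

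Complex II links the citric acid cycle to the chain and is wholly nuclear-encoded. None of its 4 genes was called, all 4 fold changes were below 0, and the median was -0.24. Sdha, the flavoprotein that oxidises succinate, was the most abundant of them, with 296, 299, 278 and 287 CPM in WT and 249.7 and 296 CPM in KO (-0.09, 95% interval -0.32 to 0.14). KO 2 thus lay within the WT range. Sdhc, a membrane anchor, had 95.3, 92.2, 95.01 and 107 CPM in WT and 73.9 and 84.0 CPM in KO. Its groups did not overlap, but the difference was not called (-0.30, SE 0.11, adjusted p = 0.116, edgeR). The iron-sulfur subunit gene Sdhb had 99.1 to 103 CPM in WT, 96.6 in KO 1 and 70.9 in KO 2, so that KO 1 lay just below WT and KO 2 well below. The second anchor gene, Sdhd, was counted at 6.61 to 9.11 CPM.

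Complex III oxidises ubiquinol. Of its 9 genes 8 were tested, none was called, and the median was -0.12. The gene of the cytochrome c1 subunit, Cyc1, had 73.4 to 89.4 CPM in WT and 92.6 and 76.3 CPM in KO, and the core genes Uqcrc1 and Uqcrc2 had fold changes of -0.16 and -0.23. Uqcrh, the hinge protein beside cytochrome c1, had both the highest level per length and the smallest p of the complex. It was counted at 146, 135, 148 and 176 CPM in WT 1 to WT 4 and at 124 and 92.2 CPM in KO 1 and KO 2. The log2 fold change was -0.49 (SE 0.16, adjusted p = 0.0844, edgeR), with -0.25 without KO 2 and -0.76 without KO 1. DESeq2 called it, and it was also called when no expression filter was used.

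Complex IV, the terminal oxidase, held 3 of the 4 called genes. Of 20 genes 15 were tested, 3 were lower (20%, against 5.58% of all genes tested), 12 were not called, and the median was -0.26. Each of these 3 calls was lost in at least 4 of the 6 fits with 1 library left out. Of the 12 widely expressed subunit genes, 10 had a fold change below 0, and 2 (Cox5a and Cox7c) were above 0. Cox7a2l, a relative of subunit VIIa, was one of the called genes (Entrez gene 20463, chromosome 17, 83501917 to 83514333). It had 249, 233, 221 and 261 CPM in WT 1 to WT 4 and 175 and 183 CPM in KO 1 and KO 2. The 2 KO values lay close together and below all WT values (241 ± 17.5 CPM, SD, n = 4, and 179 ± 5.38 CPM, SD, n = 2). The log2 fold change was -0.43 (SE 0.10, adjusted p = 0.0345, edgeR). Cox8a, the common isoform of subunit VIII and the gene with the highest level per length in complex IV (Entrez gene 12868, chromosome 19, 7215158 to 7217616), was another. Its levels were 216, 204, 201 and 254 CPM in WT and 154 and 164 CPM in KO, with no overlap (-0.46, SE 0.12, adjusted p = 0.0414, edgeR).

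The third called gene of complex IV was Cox6a2, the heart and skeletal muscle isoform of subunit VIa (Entrez gene 12862, chromosome 7, 128205435 to 128206366). It was expressed at a low level, 6.88, 7.22, 10.6 and 9.89 CPM in WT and 3.07 and 4.49 CPM in KO, from 53 to 245 counts per library. The groups did not overlap, and the log2 fold change of -1.20 (SE 0.32, adjusted p = 0.0496, edgeR) was the largest among the called members. Its widely expressed partner Cox6a1 had 124, 124, 121 and 153 CPM in WT and 112 and 126 CPM in KO (-0.13, adjusted p = 0.499, edgeR). The per-length level of Cox6a1 was 244 RPKM (reads per kilobase of gene, scaled to library size) in WT, against 13.1 RPKM for Cox6a2.

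Other tissue-restricted isoforms were at the limit of detection or not counted. Cox7a1, another muscle isoform, had 0.060 to 0.85 CPM and the testis isoform Cox6b2 had 0 to 1.33 CPM, from 1 to 21 and 0 to 33 counts per library. Neither was called (adjusted p = 0.961 and 0.531, edgeR), and their 2 partners Cox7a2 and Cox6b1 had 27.1 ± 3.89 and 89.3 ± 9.89 CPM in WT and 24.2 ± 6.69 and 73.6 ± 8.35 CPM in KO. Cox4i2, Cox7b2, Cox8b, Cox8c and Ndufa4l2 had 0 counts in all 6 libraries. With 0 counts, this depth allows levels up to 3 counts, or 0.0963 to 0.183 CPM by library. Their widely expressed relatives Cox4i1 and Ndufa4, the latter now placed in complex IV despite its name, had 252 ± 27.1 and 114 ± 5.16 CPM in WT and 217 ± 11.7 and 94.9 ± 1.49 CPM in KO (-0.21 and -0.26, adjusted p = 0.238 and 0.138, edgeR).

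**Figure D3:**
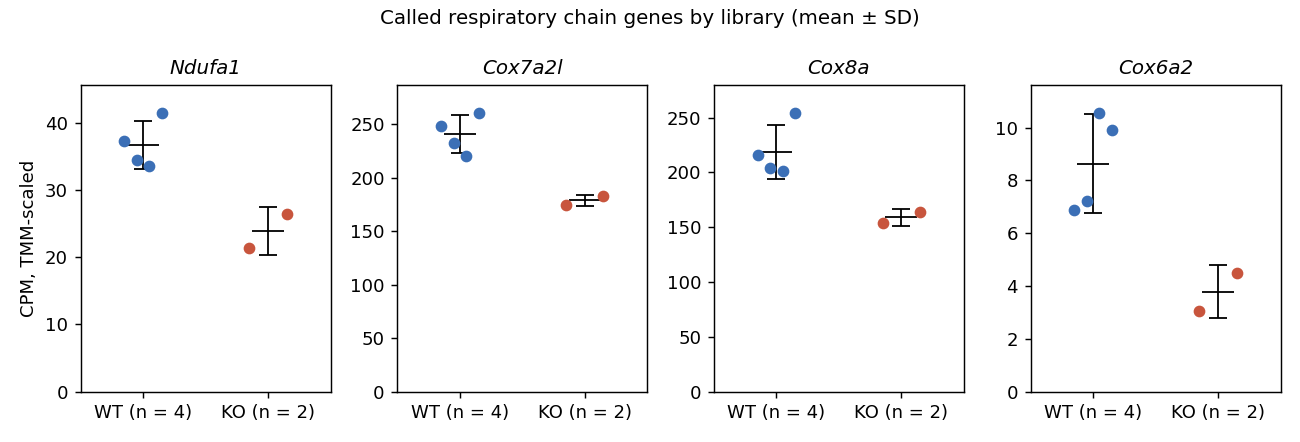
CPM of the 4 called genes in each library, with mean ± SD of 4 WT and 2 KO libraries; every axis starts at 0. Both KO points of each gene lie below the lowest WT point, and the scale of Cox6a2 (3.07 to 10.6 CPM) is far below that of Cox7a2l and Cox8a.

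The 4 calls depended on single libraries. None of the 4 was called without WT 1, WT 3, KO 1 or KO 2, while Ndufa1 and Cox8a remained without WT 2 and Cox7a2l and Cox8a without WT 4. Over these 6 omissions the adjusted p ranged from 0.0352 to 0.156 for Ndufa1, 0.0428 to 0.149 for Cox7a2l, 0.0361 to 0.168 for Cox8a and 0.0603 to 0.228 for Cox6a2. The share of all genes called also dropped in those fits, to between 6.63% and 7.55% without WT 1, WT 3, KO 1 or KO 2. The log2 fold changes stayed within -0.74 to -0.53, -0.47 to -0.39, -0.52 to -0.39 and -1.50 to -0.93 in the same order. With library-size scaling, Ndufa1 alone was called, and with upper-quartile scaling Ndufa1 and Cox7a2l. Cox6a2 was also lost with limma voom and when only genes reaching 5 CPM in 2 or more libraries were kept. With the replicate numbers as a block, which the data did not show to be pairs, 0 members were called. DESeq2 called 8 members, all lower, where it called 21.6% of all genes: the 4 above and Uqcrh, Ndufa6, Ndufa13 and Atp5a1.

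Complex V makes ATP by rotation of its membrane ring against the catalytic head. None of its 17 genes was called, and all 17 fold changes were below 0, between -0.51 and -0.04 with a median of -0.13. For 6 of 17 both KO libraries lay below WT, against the same 18.8%. Atp5a1 and Atp5b of the catalytic head (F1) had the highest CPM of all members. Atp5a1, the alpha subunit, had 908, 925, 854 and 994 CPM in WT and 721.5 and 821 CPM in KO, without overlap (-0.26, SE 0.08, adjusted p = 0.0795, edgeR). Atp5b, the catalytic beta subunit, had 782, 767, 757 and 907 CPM in WT and 758 and 711 CPM in KO, where KO 1 fell inside the WT range (-0.13, adjusted p = 0.447, edgeR). The 4 genes of the peripheral stalk, which holds the head still, had a median of -0.10.

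The c-ring of complex V is encoded by 3 genes whose mature proteins are the same. Nearly all of its counts lay in Atp5g3, with 182 ± 16.0 CPM in WT and 171 ± 9.40 CPM in KO (-0.09, adjusted p = 0.671, edgeR). Atp5g1 had 8.45 ± 1.74 and 6.80 ± 0.63 CPM, and Atp5g2 had 2.64 ± 0.60 and 2.48 ± 1.06 CPM. Neither was called (adjusted p = 0.496 and 0.929, edgeR).

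Levels per length differed widely between subunits of the same complex. In WT, complex I subunit genes had a median of 55.2 RPKM, and 28 of 36 lay within 2-fold of it. The median was 88.4 RPKM in complex II, 89.9 in complex III, 132 in complex IV and 126 in complex V, with 3 of 4, 6 of 8, 7 of 15 and 8 of 17 tested genes within 2-fold. Assembly factors of complex I lay lower, at a median of 10.9 RPKM. The top gene of each complex was Ndufb10 (127 RPKM), Sdha (101), Uqcrh (277), Cox8a (402) and Atp5b (427). At the other end, some obligatory subunits were barely counted. Uqcr11, a small subunit of complex III, had 1 count over all 6 libraries. Atp5l, Ndufb4, Ndufs5 and Cox7c had 5.01, 4.53, 7.35 and 7.85 RPKM in WT, and Ndufab1, the mitochondrial acyl carrier protein, had 3.97.

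Genes with processed copies elsewhere can lose reads or share them, so annotated copies were searched by sequence. Of 94 members with a protein-coding GENCODE M21 transcript, 20 had at least 1 annotated pseudogene sharing 200 or more bases at 95% identity or more. Among 78 subunit genes, leaving out tissue-restricted isoforms, assembly factors and gene copies, WT levels had a median of 84.0 RPKM in the 58 without such a pseudogene. The median was 64.6 RPKM in the 17 with 1 to 2 and 29.5 RPKM in the 3 with 3 or more, Uqcrb, Atp5h and Atp5l. A level under 15 RPKM, a line drawn after the values were seen, was found for 4 of the 58, 6 of the 17 and 1 of the 3. Atp5l had 8 such copies, and the called gene Cox7a2l had 1, while Ndufa1, Cox8a and Cox6a2 had 0. Ndufs5 had 3.48, 3.23, 4.02 and 4.24 CPM in WT 1 to WT 4 and 4.35 and 3.79 CPM in KO 1 and KO 2. The related pseudogene Ndufs5-ps, outside the rule, had 20.2 and 21.9 CPM in WT 1 and WT 2. It had 20.7 and 22.8 CPM in the KO libraries (fold change 0.0033), and its values in WT 3 and WT 4 are not given here. The levels of members with copies are therefore uncertain, and whether copies account for the low levels was not tested. Uqcr11, Sdhd and Cox7c were low with 0 such copies.

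**Figure D4:**
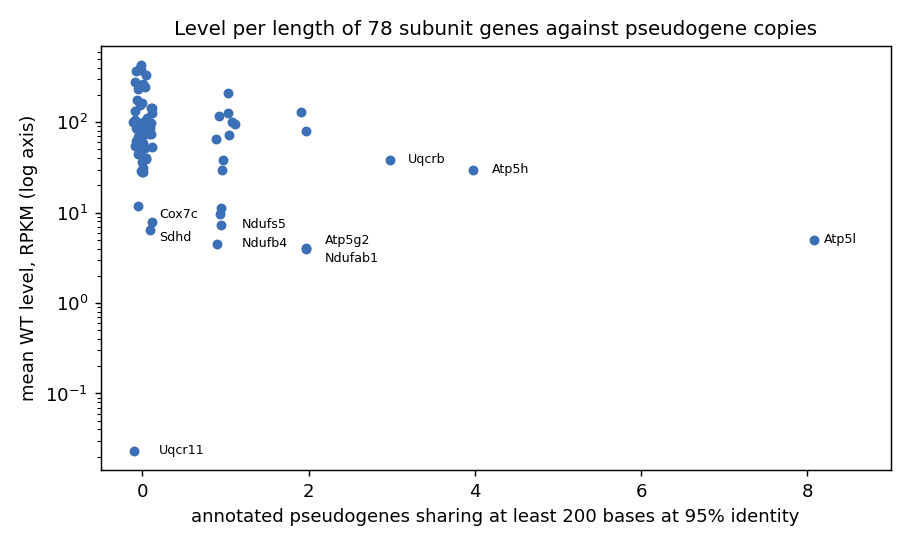
Mean WT level in RPKM (log axis) of 78 subunit genes against the number of annotated pseudogenes that share at least 200 bases at 95% identity, 1 point per gene with small sideways scatter. Genes with 0 copies lie mostly above 15 RPKM, the gene with 8 copies (Atp5l) lies at 5.01, and Uqcr11 with 0 copies lies lowest.

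The stretches of DNA just before the starts of the called genes are shown because TCF-1 and the nuclear respiratory factor NRF1 act through short DNA motifs. RefSeq starts on GRCm38.p6 were found for 77 of the 98 members in 82 windows of 250 bases upstream, and the table held no entry for Cox6a2. The windows, on the minus strand, are chrX:37191239-37191488 for Ndufa1, chr17:83514334-83514583 for Cox7a2l and chr19:7217617-7217866 for Cox8a. Cox6a1 (chr5:115348959-115349208, minus strand), the uncalled partner of Cox6a2, is added as a member with motif matches. Capitals mark matches to 3 motifs, that of NRF1, CCGGAAG (ETS factors such as GABP) and ATCAAAG (TCF factors), on either strand; each motif was counted separately even where matches overlap.
Ndufa1: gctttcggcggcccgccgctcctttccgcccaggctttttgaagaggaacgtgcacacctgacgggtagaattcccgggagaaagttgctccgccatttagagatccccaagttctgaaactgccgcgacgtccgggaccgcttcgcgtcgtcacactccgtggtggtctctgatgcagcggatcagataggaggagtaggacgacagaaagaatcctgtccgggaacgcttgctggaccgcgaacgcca
Cox7a2l: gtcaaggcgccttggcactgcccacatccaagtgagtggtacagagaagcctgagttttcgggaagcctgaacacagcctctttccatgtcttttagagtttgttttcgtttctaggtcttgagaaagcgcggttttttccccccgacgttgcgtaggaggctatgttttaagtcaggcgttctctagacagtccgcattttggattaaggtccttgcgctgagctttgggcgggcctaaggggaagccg
Cox8a: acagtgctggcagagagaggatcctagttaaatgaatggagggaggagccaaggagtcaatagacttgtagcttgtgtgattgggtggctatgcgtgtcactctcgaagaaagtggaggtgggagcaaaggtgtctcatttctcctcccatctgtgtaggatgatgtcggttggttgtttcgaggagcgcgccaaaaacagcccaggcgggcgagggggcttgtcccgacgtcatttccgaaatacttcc
Cox6a1: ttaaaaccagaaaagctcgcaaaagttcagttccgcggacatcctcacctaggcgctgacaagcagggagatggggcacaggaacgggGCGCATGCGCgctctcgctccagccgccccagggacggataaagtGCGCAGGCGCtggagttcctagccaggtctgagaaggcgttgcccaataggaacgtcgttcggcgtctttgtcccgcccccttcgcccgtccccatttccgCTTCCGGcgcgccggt

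The windows of Ndufa1, Cox7a2l and Cox8a held no match to these 3 motifs. That of Cox6a1 held 2 matches to the NRF1 letters, which lie 162 and 117 bases before the start, and 1 to the ETS letters at 16 bases. NRF1 is a known activator of respiratory chain genes, and its letters were found in 15 of 82 member windows (18.3%), against 3.74% of all 32851 windows in the table. The ETS letters were in 14 windows (17.1%, against 6.91% of all) and the TCF letters in 1 window, that of Ndufa5 (1.22%, against 3.21%). The letters GGGCGG (SP factors) and CCAAT, searched on both strands and not capitalised, were in 37.8% and 42.7% of member windows, against 32.7% and 33.8% of all. The 14 tested members with the NRF1 letters had a median log2 fold change of -0.10, and the 60 without had -0.15. The 13 with the ETS letters had -0.19 and the 61 without -0.12. The 33 with CCAAT had -0.24 and the 41 without -0.10, and the 30 with GGGCGG had -0.09 and the 44 without -0.16. These differences were not tested.

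The subunits encoded in mitochondrial DNA, which join the members in complexes I, III, IV and V, had a lower median fold change, a difference that was not tested. All 13 protein-coding genes were tested, 10 were lower, none was higher, and the median was -0.49. They summed to 21963, 24703, 18737 and 26494 CPM in WT 1 to WT 4 and to 15634 and 18705 CPM in KO 1 and KO 2, so that KO 2 lay just below WT 3. As a share of the library's counts, without TMM scaling, the groups overlapped (1.87% to 2.58% in WT, 1.64% and 1.92% in KO). The libraries labelled female were higher than those labelled male within each genotype, and 0 of 13 were called in a fit with no sex term, at a median of -0.50. DESeq2, with the sex term, called all 13. The count was also 1 of 13 without KO 1, 3 without KO 2 or WT 1 and 6 without WT 4, with medians of -0.54 to -0.43 over all single omissions. The largest changes of called genes were those of ND3 (8.72 ± 3.64 to 3.06 ± 2.93 CPM, -1.74), a complex I subunit, COX3 (205 ± 53.4 to 98.0 ± 59.3 CPM, -1.16) of complex IV and ATP6 (254 ± 45.3 to 137 ± 53.9 CPM, -0.93) of complex V. All 3 lost their calls without KO 1 (adjusted p 0.0845 to 0.158, edgeR), where ND3 was -1.13, and COX3 overlapped between the groups. ND3 also lost its call without WT 1, WT 3 or WT 4 (adjusted p 0.0780 to 0.0866, edgeR).

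The other nuclear genes of the pathway showed few changes. Of 46 assembly factor genes outside the symbol rule 44 were tested, 2 were lower and 1 was higher, with a median of -0.04 (0.041 with library-size scaling). Lyrm7, a chaperone of the Rieske subunit of complex III, had 3.61 ± 1.12 CPM in WT and 0.54 ± 0.19 CPM in KO (-2.67, adjusted p = 0.0242, edgeR). It lost its call without WT 1, WT 3, WT 4 or KO 1 (adjusted p 0.0544 to 0.111, edgeR). Cmc1, which acts in COX1 maturation, fell from 43.3 ± 2.53 to 26.6 ± 0.11 CPM (-0.70, adjusted p = 0.00988, edgeR, and 0.0606 without KO 1). Its relative Cmc2 rose from 10.2 ± 0.56 to 16.4 ± 0.84 CPM (0.69, adjusted p = 0.0388, edgeR), a call that each single omission ended (adjusted p 0.0547 to 0.199, edgeR). None of 14 electron carrier genes (cytochrome c and ubiquinone synthesis), 16 carrier and peroxide defence genes and 23 genes of mitochondrial biogenesis and transcription was called, with 3, 5 and 5 of them at an unadjusted p under 0.05 in edgeR. DESeq2 called 0, 2 and 4 of them. Their medians were -0.01, -0.16 and 0.02.

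Genes of the 2 kinds of ribosome gave a comparison of other large nuclear-encoded complexes. Of 77 mitochondrial ribosomal protein genes tested, 2 were lower (Mrpl9 at -0.72 and Mrpl58 at -0.49), none was higher, and the median was -0.04 (0.038 with library-size scaling). Of 88 cytosolic ribosomal protein genes tested, 43 were lower and 1 was higher, with a median of -0.49. Rplp1 of the ribosomal stalk fell from 989 ± 97.1 to 457 ± 10.2 CPM (-1.11), Rps29 had -1.47, and the higher gene was Rps4l (1.07). The count of lower cytosolic genes was 7 without KO 2, 16 without KO 1 and 23 without WT 1 or WT 3. The median of the respiratory chain genes (-0.15) lay between those of the 2 ribosomal lists, and the difference between lists was not tested. Of 18 cell cycle genes, 11 were higher and 7 were not called, with a median of 1.39 over all 18 (0.70 without KO 1). The called genes included Ccna2 (1.81), Mki67 (1.73) and Kif11 (1.73). Of these 18, 2 were called without KO 1, 6 without WT 3 and 7 without WT 1. The part of these differences in the values of the respiratory chain genes was not tested.

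**Figure D5:**
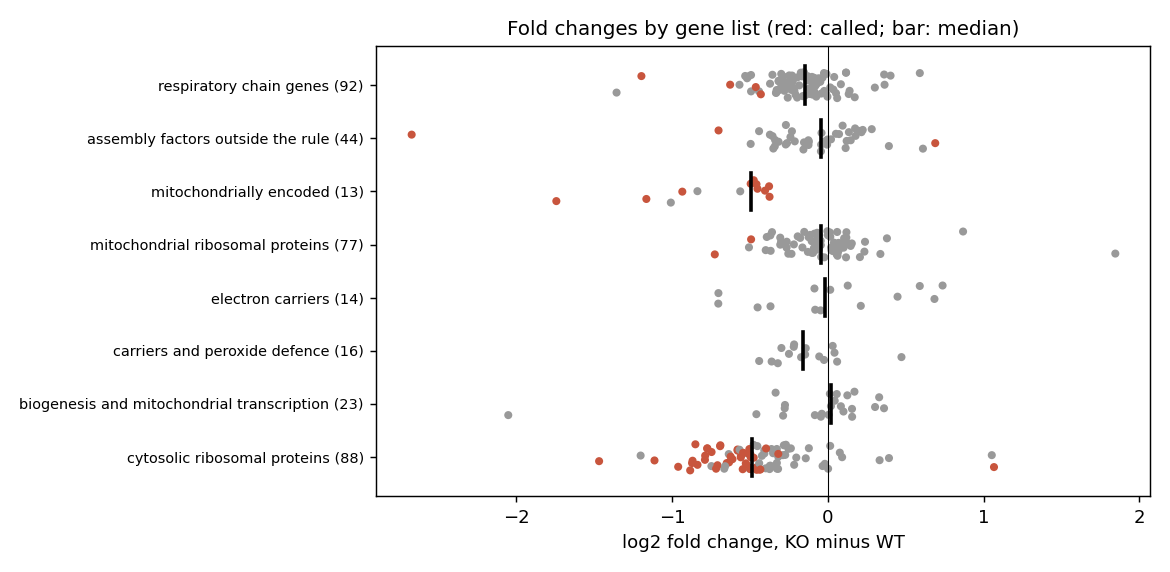
Fold changes (KO minus WT, log2) of single genes in the respiratory chain and in the other lists, 1 point per gene tested, with called genes in colour and a line at each median. The respiratory chain genes centre at -0.15, the carrier and peroxide defence list at -0.16 and the mitochondrial ribosomal list at -0.04. The cytosolic ribosomal and the mitochondrially encoded genes both centre at -0.49.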

How the data were processed

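RNA from sorted thymic NK cells of 6 individual mice was sequenced in paired ends after SMART-Seq v4 amplification, per the labels' protocols. The authors deposited raw counts per Entrez gene, made with featureCounts on mm10 per the submitters' processing notes; the aligner is not given in the sources used here. The counts carry no molecular identifiers, and nothing in the sources used here says that strand was used. Of 26332 gene IDs, 25275 matched a symbol. Counts were tested in R 4.3.3 with edgeR 4.0.16 (filterByExpr, TMM scaling, sex and genotype as terms, quasi-likelihood test, Benjamini-Hochberg adjustment over 13652 genes). With 3 residual degrees of freedom, the fit estimated a common biological variation (BCV) of 0.239. The alternatives were 3 other scalings, 2 other filters, no sex term, a replicate block, DESeq2 1.42.0, limma 3.58.1 (voom) and omitted libraries. The script was tested on simulated data. RPKM values used the gene lengths deposited with the counts.

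The rule for named genes took every called member, the member with the highest level per length and that with the smallest p in each complex, the isoform genes with their partners, and, of each other list, the called genes of largest change, up to 3. Other members named in the text, such as Ndufa6, Ndufa12, Sdhb, Sdhd, Cyc1, Uqcrc1, Uqcrc2, Cox5a and Cox7c, and the markers and low-level genes named, stand outside this rule and were chosen after their values were seen. The members and lists were chosen with earlier results of these data known. An exact permutation test of 4 against 2 libraries cannot go below p = 0.0667 (two-sided), so none is given for single values. Intervals come from the fit. Results for some single genes are not reported here.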

Additional observations from a re-analysis of the deposited data

Results flagged for a closer look

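In 3 of 45 groups of 4 WT values, 1 library stood apart from the other 3 by a gap above Dixon's 95% critical value. Chance gives this in about 1 of 20 groups. Ndufaf8 was low in WT 2 (13.3 CPM), Atp5b was high in WT 4 (907 CPM), and Cox6a1 was high in WT 4 (153 CPM).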

How the results depend on the processing

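The number of genes called over all genes was 2955 with DESeq2 and 934 to 1908 with 1 library left out, against 1872. The number of respiratory chain genes called was 2 with upper-quartile scaling, 1 with library-size scaling, 8 with DESeq2, 0 without WT 3 and WT 4 together and 0 to 2 with 1 library left out, against 4. All of these calls were lower in KO, and the cause of the differences was not tested. The median of the members stayed below 0 in all 16 alternatives. Of 92 members, 56 kept their direction in every alternative in which they were tested, 48 lower and 8 higher in KO. The filter at 5 CPM in 2 libraries tested only 83 members. Of the members named by the rule, these 5 changed sign with 1 library left out: Sdha (-0.21 to 0.0089), Atp5g3 (-0.20 to 0.017), Cox7a2 (-0.60 to 0.21), Cox7a1 (-0.43 to 0.92) and Atp5g2 (-0.78 to 0.48). Members named outside the rule are not covered by this list. Cox7a1 was also 0.20 with limma voom, and Atp5g2 was 0.039 with limma voom and 0.10 without WT 3 and WT 4 together. Genes of a few CPM are limited by depth.

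Replicate numbers are shared between the genotypes, but the deviations of same-numbered libraries correlated at 0.128 and 0.000486, so the numbers were not taken as pairs. With a replicate block, 0 members and 1341 of all genes were called, and Atp5g2 was 0.10. In that fit WT 3 and WT 4 have no KO library of the same number and add nothing to the genotype contrast. It therefore compares the same libraries as the fit without WT 3 and WT 4 together, and the 2 are not independent checks.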
